A study of Mus musculus with 6 samples.

Results

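The expression of the genes of TGF-beta, activin and BMP signalling was compared between mature adipocytes (AC) and dedifferentiated fat (DFAT) cells of the mouse. The genes were a list of 51 symbols of ligands, receptors, Smads, antagonists and targets, and a gene was measured where the platform annotation gives a probe set that 1 symbol only. This held for 48 of the 51 genes, with 105 of the 45037 probe sets tested, among 18193 genes measured in all. Bmp3, Gdf15 and Mstn were not analysed here. AC were primary mature adipocytes isolated from fat tissue. DFAT cells were the proliferating line that arises when floating adipocytes are held against the upper face of a culture vessel (ceiling culture), and were grown to semiconfluence. The methods describe DFAT as a line from adipocytes of GFP transgenic mice, cultured with fetal bovine serum, and do not state this origin for AC. Neither the labels nor the methods name an agent given to either group, a strain, age or sex, or whether different animals or cultures gave the 3 arrays of each group. The p-values thus measure only the spread between these arrays, which may be technical, and their number limits the precision.

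Ligands of the TGF-beta superfamily bind pairs of type I and type II receptor kinases, which phosphorylate Smad proteins, and the Smads enter the nucleus with the common partner Smad4. TGF-beta and activin signal mainly through Smad2 and Smad3, and BMPs through Smad1, Smad5 and Smad9 (Smad8), with the Id genes as classical targets. Ligands are held back outside the cell by latent complexes and by antagonists such as follistatin, gremlin and noggin. In fat tissue, TGF-beta and activin A are known to hold precursor cells back from becoming adipocytes, whereas BMP2 and BMP4 favour their commitment to the adipocyte lineage.

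Values are log2 RMA values of Affymetrix arrays, on which a difference of 1 is a 2-fold change, and of several probe sets the one with the highest mean over all 6 arrays was taken for the gene. Array medians ran from 4.92 to 5.11. The background level of an array, set by genes known from eye, ear and sperm, lay between 5.51 and 5.67, and is a level of signal, not a detection call. All 18 measured white adipocyte markers were above it on the AC arrays, and 12 were at or below it on every DFAT array, Adipoq and Lep included. The AC arrays also held markers of other cells, with a mean over the list of 7.94 to 9.84 for the 18 endothelial, 6.43 to 8.33 for the 18 leukocyte and 8.63 to 9.36 for the 14 epithelial genes, against 4.18 to 4.58 on the DFAT arrays. Of these lists, 18, 16 and 12 genes were lower in DFAT cells. The 13 measured stromal fibroblast and progenitor markers had a mean of 9.20 to 9.63 on the AC arrays, against 8.99 to 9.03 on the DFAT arrays. In DFAT cells 6 of them were higher and 5 lower. The 11 measured proliferation markers were all higher in DFAT cells, with a mean of 10.83 to 10.92 against 4.91 to 5.39. Fewer cells of a type and less RNA per cell cannot be told apart in such samples. The array of AC replicate 1 stood apart, correlating across probe sets at 0.971 and 0.969 with the AC arrays of replicates 2 and 3, whose own correlation was 0.992. It had the highest endothelial mean, 9.84 against 8.06 and 7.94, and the lowest leukocyte mean, 6.43 against 8.26 and 8.33. Among the AC arrays it also had the lowest stromal mean, 9.20 against 9.63 and 9.57. It also had the highest epithelial mean, 9.36 against 8.72 and 8.63, and the highest mean of pericyte and smooth muscle markers, 8.78 against 8.33 and 8.45. Results are also given without it below where a call or a value depended on it.

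Of the 48 genes, limma found 17 higher and 13 lower in DFAT cells (adjusted p under 0.05), and 18 did not pass the test. The share called was 62.5%, against 46.4% of all genes measured. By direction, 35.4% were higher, against 22.6% of all genes, and 27.1% were lower, against 23.8%. The groups did not overlap in 38 genes (79.2%), against 60.0% of all genes. Changes of at least 4-fold were found for 7 genes in the upward and 4 in the downward direction, where the shares of all genes were 4.78% and 6.65%, or 11.4% together. The 4 falls, of Ltbp2, Gdf10, Bmp2 and Bmp6, rest on DFAT values at or below the background level. With values below that level raised to it, 6 genes were at least 4-fold higher, and the 4 falls lay between -1.17 and -0.69 and did not pass the test. The median difference of the 48 was 0.28, against -0.10 over all genes. Without AC replicate 1, 23 genes were higher and 14 lower. Only Tgfbr1 lost its call then, and Acvr2a, Bambi, Id2, Ltbp4, Smad1, Smad3, Smad5 and Tgfbi gained one. The balance of directions depended on how the arrays were scaled. In the deposited values 52.9% of all calls were higher in DFAT cells, and the median over all probe sets was -0.06. With each array centred on reference genes the share was 23.2% and the median -0.43, with hybridization controls 78.5% and 0.40, and with the array median 63% and 0.07. All called genes of the 48 that changed by at least 2-fold kept their direction under each of these scalings.

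**Figure D1:**
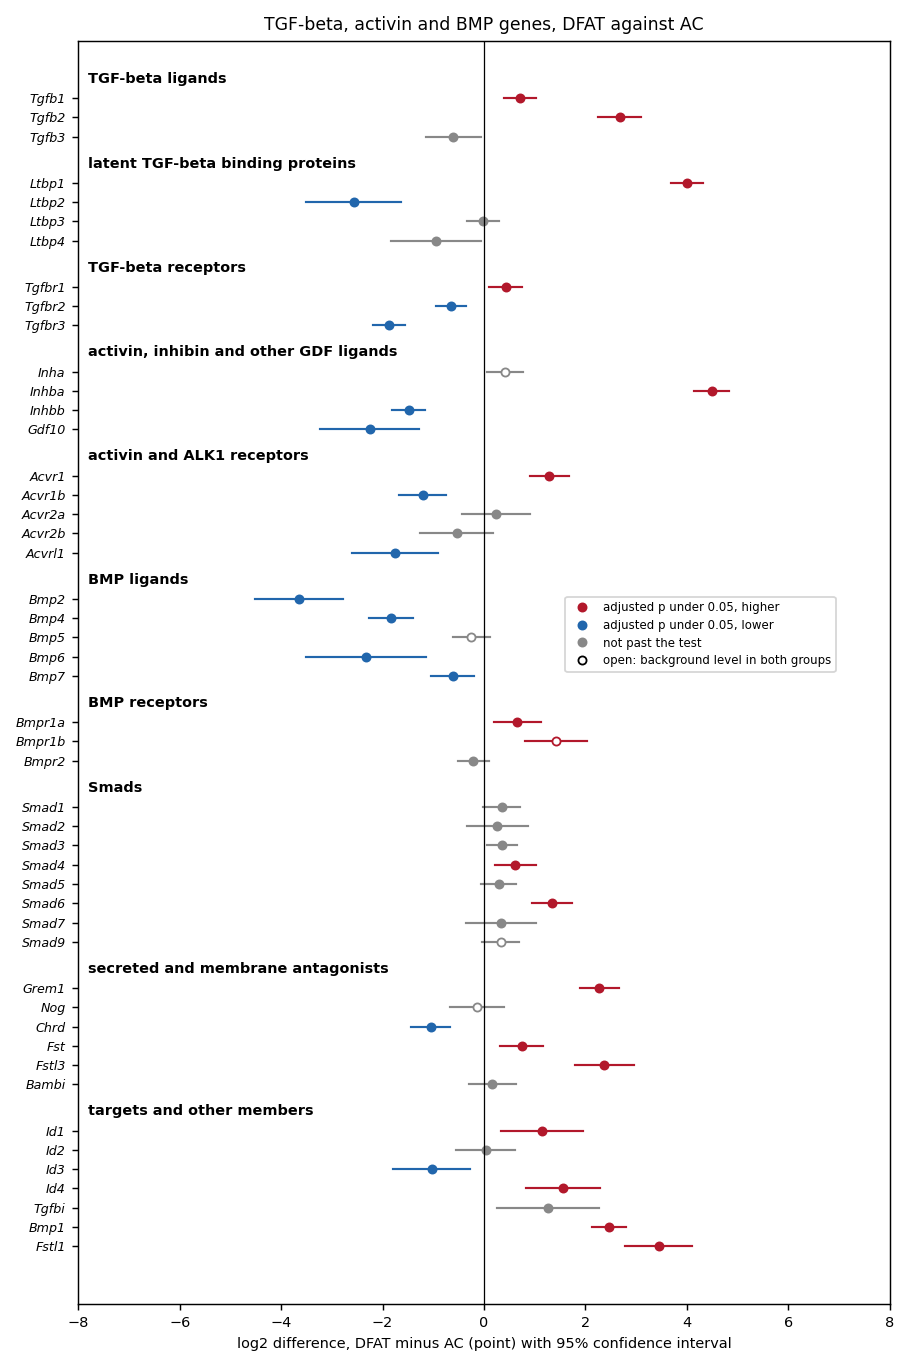
Differences of the 48 measured genes, grouped by role. The horizontal axis is the log2 difference of DFAT cells minus AC, points are limma estimates over 3 arrays a group and bars are 95% confidence intervals; red and blue mark genes higher and lower at an adjusted p under 0.05, grey the others, and open points genes at the background level in both groups. Inhba, Ltbp1 and Fstl1 lie farthest to the right, at 4.49, 4.01 and 3.44, and Bmp2 farthest to the left, at -3.65.

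Among the TGF-beta ligands, Tgfb2 rose in DFAT cells. The AC values of Tgfb2 were 5.30, 5.82 and 5.70, and the DFAT values were 8.51, 8.14 and 8.20. All DFAT arrays were above all AC arrays, and the AC values lay around the background level. The difference was 2.68 ± 0.18 (SE, n = 3 a group), a 6.39-fold change, with an adjusted p of 1.38e-05 from limma, and each of the 4 probe sets of the gene was higher. Tgfb1, the form made by most cell types, was 6.77 ± 0.09 (SD, n = 3) in AC, against 7.47 ± 0.15 in DFAT cells, a difference of 0.71 with an adjusted p of 0.00433. A second, dimmer probe set of Tgfb1 went the other way, at -0.84, and the mean of both differed by -0.07, so the direction of Tgfb1 rests on the probe set. With the arrays centred on reference genes Tgfb1 was 0.34 and did not pass the test. Tgfb3 did not pass it, at -0.61, nor at -0.35 without AC replicate 1, but was called lower with reference genes, at -0.97.

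The latent TGF-beta binding proteins, which tie the secreted ligand to the matrix, went different ways. Ltbp1 was 6.47, 6.65 and 6.79 on the AC arrays, against 10.60, 10.66 and 10.68 on the DFAT arrays. The groups stood far apart relative to their spread, with a difference of 4.01 ± 0.14 (SE), 16.1-fold, and an adjusted p of 3.66e-07 from limma. Ltbp2, which resembles these proteins but is not known to bind the latent ligand, was 7.42, 6.20 and 5.59 in AC, against 3.93, 3.75 and 3.81 in DFAT cells. All DFAT values were at the background level, and AC replicate 1 was the highest. The difference was -2.57 ± 0.40 (SE) with an adjusted p of 0.00139 from limma, -2.06 without that array, and -0.79 with an adjusted p of 0.318 when values below the background level were raised to it. Ltbp4 did not pass the test at -0.94, but did without AC replicate 1, at -0.45 (adjusted p = 0.0352, limma), and with reference genes, at -1.31. Ltbp3 had the highest mean of its probe sets at 11.28 ± 0.13 (SD, n = 3) in AC, against 11.26 ± 0.12 in DFAT cells, with no difference past the test, while a pair of its dim probe sets, at the background level in AC, were higher in DFAT cells by 2.07 and 2.96. With reference genes the brightest probe set of Ltbp3 was called lower, at -0.39.

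The TGF-beta receptors were measured clearly above background in both groups. Tgfbr3 (betaglycan), the co-receptor that presents TGF-beta2 and also binds inhibin, fell. It was 11.03, 11.06 and 10.99 in AC, against 9.31, 9.14 and 9.01 in DFAT cells. Each AC array was above each DFAT array, and the difference of -1.87 ± 0.13 (SE), 3.66-fold, had an adjusted p of 1.69e-05 from limma. The type II receptor gene Tgfbr2 was lower by a log2 difference of -0.65 (adjusted p = 0.00483, limma), but at -0.18 it did not pass the test with the arrays centred on hybridization controls. The type I receptor gene Tgfbr1 was higher by 0.42, with an adjusted p of 0.0492 from limma, and of 0.0553 without AC replicate 1, and was 0.06 and not past the test with reference genes.

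Of the activin genes, one subunit rose and another fell. Inhba encodes the subunit whose dimer is activin A, and Inhbb that of activin B. Inhba was 6.79, 6.57 and 6.40 on the AC arrays, against 11.02, 11.18 and 11.02 on the DFAT arrays. This was the largest difference among the 48 genes in the deposited values, 4.49 ± 0.15 (SE) with a 95% confidence interval of 4.15 to 4.83, a 22.4-fold change (adjusted p = 3.05e-07, limma). A second probe set of Inhba was at the background level in both groups and did not differ past the test. Inhbb was 9.87, 9.81 and 9.54 in AC, against 8.28, 8.28 and 8.20 in DFAT cells. It went in the opposite direction without overlap, by -1.49 ± 0.14 (SE), 2.81-fold, with an adjusted p of 8.35e-05 from limma. Inha, whose product pairs with either to form inhibin, was at the background level in both groups. Gdf10 (BMP3b) was 5.37, 6.01 and 7.23 in AC, against 3.78, 4.22 and 3.84 in DFAT cells. The AC arrays scattered widely, 1 of them at the background level, and all DFAT values were at that level. The difference was -2.26 ± 0.42 (SE) with an adjusted p of 0.00339 from limma, and -0.69 with an adjusted p of 0.326 with the floor at the background level.

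The promoter sequences of Inhba and Inhbb, which moved in opposite directions, and of Tgfb2 are shown to let them be compared. Each is the 250 bases before the RefSeq start, 5' to 3' on the strand of the gene, in GRCm38.p6, and capitals mark matches to TATAAA or to CAGAC, the core letters that Smad3 and Smad4 bind (GTCTG on the other strand).

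Inhba (chr13:16011601-16011850, plus strand): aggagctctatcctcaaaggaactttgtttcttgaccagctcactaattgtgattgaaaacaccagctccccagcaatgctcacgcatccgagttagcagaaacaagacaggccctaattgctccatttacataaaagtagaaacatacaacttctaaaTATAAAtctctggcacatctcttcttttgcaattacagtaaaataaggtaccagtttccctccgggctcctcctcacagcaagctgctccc

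Inhbb (chr1:119422249-119422498, minus strand): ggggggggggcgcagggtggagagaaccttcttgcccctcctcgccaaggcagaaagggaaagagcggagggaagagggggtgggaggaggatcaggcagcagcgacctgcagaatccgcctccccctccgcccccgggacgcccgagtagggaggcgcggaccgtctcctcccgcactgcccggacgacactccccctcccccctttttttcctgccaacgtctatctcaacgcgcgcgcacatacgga

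Tgfb2 (chr1:186705990-186706239, minus strand): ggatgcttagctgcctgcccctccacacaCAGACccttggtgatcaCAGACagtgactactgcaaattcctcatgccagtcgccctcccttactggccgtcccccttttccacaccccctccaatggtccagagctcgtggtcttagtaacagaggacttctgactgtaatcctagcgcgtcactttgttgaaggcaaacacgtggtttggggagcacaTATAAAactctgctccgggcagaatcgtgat

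TATAAA lies at -91 to -86 in the Inhba sequence and at -31 to -26 in that of Tgfb2, and is found on either strand in 12.4% of the 32851 promoters of the table. CAGAC occurs in Tgfb2 at -221 to -217 and -204 to -200, and in 42.2% of all promoters. In the Inhbb sequence, which is richer in G and C (68% against 43.2% in Inhba), none of the motifs searched was found. Of the 48 genes, 35 have an entry in the table, 18 of them with CAGAC, 11 with GGCGCC and 4 with TATAAA in at least 1 entry. GGCGCC is in 9.59% of all promoters. The shares are per promoter, whereas the counts are per gene with up to 3 entries, so they are not alike. The motifs were chosen after the expression values were seen, and a match is not a binding site.

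Of the activin and related receptors, Acvr1 rose and Acvr1b fell. Acvr1 (ALK2), a type I receptor used by BMPs, was 8.42, 8.77 and 8.91 in AC, against 10.07, 9.84 and 10.03 in DFAT cells, with no overlap. The difference was 1.28 ± 0.17 (SE; adjusted p = 0.000496, limma). Acvr1b (ALK4), the type I receptor of activins, was 8.53, 9.17 and 9.20 in AC, against 7.67, 7.85 and 7.74 in DFAT cells. The difference of -1.21 ± 0.20 (SE) had an adjusted p of 0.0018 from limma, but at -0.75 it did not pass the test with the hybridization controls. Acvrl1 (ALK1), the receptor for BMP9 and BMP10 known from endothelial cells, was 7.50, 6.07 and 6.26 in AC, against 4.48, 5.11 and 4.98 in DFAT cells. All DFAT values were at the background level and AC replicate 1, the array with the highest endothelial mean, was the highest. The difference was -1.75 ± 0.37 (SE; adjusted p = 0.00623, limma), -1.31 without that array, and -0.99 with an adjusted p of 0.103 with the floor. A second probe set of Acvrl1, near or below the background level in both groups, did not differ past the test, at -0.21. The part of endothelial RNA in the fall of Acvrl1 was not tested. Of the 18 endothelial markers, 13 were at the background level on all DFAT arrays, Pecam1, Cdh5 and Tek among them. The type II receptors Acvr2a and Acvr2b did not pass the test, at 0.24 and -0.54, though Acvr2a was 0.60 without AC replicate 1 (adjusted p = 0.00466, limma). A second, dimmer probe set of Acvr2a was called higher by 0.46 (adjusted p = 0.043, limma), but the mean of its probe sets did not pass the test, at 0.35. Acvr2a was called higher with the hybridization controls, at 0.70, and Acvr2b lower with reference genes, at -0.91.

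**Figure D2:**
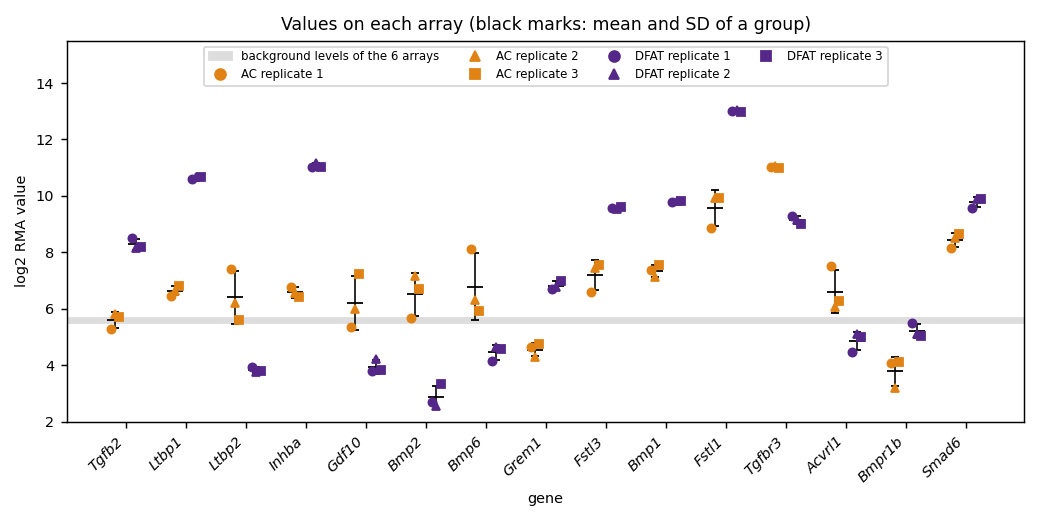
Log2 RMA values on each of the 6 arrays for the genes with at least 4-fold changes and for the gene with the largest called difference in each role without one. Orange points are AC and purple points DFAT arrays, with the shape giving the replicate, the black marks give mean and SD (n = 3), and the background levels of the 6 arrays fall in the grey band. Inhba and Ltbp1 lie near 11.07 and 10.65 in DFAT cells, whereas the DFAT values of Bmp2, Bmp6, Gdf10, Ltbp2 and Acvrl1 lie below the band.

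Of the 5 BMP ligands measured, 4 (80.0%, against 23.8% of all genes) were lower in DFAT cells and none was higher. Bmp5 was at the background level in both groups. Bmp2 was 5.68, 7.15 and 6.71 on the AC arrays, against 2.70, 2.56 and 3.33 on the DFAT arrays. The lowest AC value lay just above its background level and all DFAT values well below theirs. The fitted difference was -3.65 ± 0.37 (SE), with an adjusted p of 0.000132 from limma. Bmp6 was 8.13, 6.33 and 5.90 in AC, against 4.17, 4.63 and 4.57 in DFAT cells. AC replicate 1 was far above the other AC arrays, and the difference of -2.33 ± 0.51 (SE; adjusted p = 0.00787, limma) was -1.66 without it. Bmp4 was 5.87, 5.22 and 5.60 in AC, against 3.83, 3.59 and 3.74 in DFAT cells, close to the background level in AC and below it in DFAT cells, with a difference of -1.84 ± 0.19 (SE; adjusted p = 0.000124, limma). Bmp7 was 6.02 ± 0.33 (SD, n = 3) in AC, against 5.40 ± 0.03 in DFAT cells, a difference of -0.62 with an adjusted p of 0.0281 from limma. The falls of all 4 rest on DFAT values at or below the background level. With values below it raised to it, the differences were -0.90, -1.17, -0.04 and -0.40 for Bmp2, Bmp6, Bmp4 and Bmp7, and none passed the test. With a lower floor, the 90th percentile of the background genes, added after seeing the data, Bmp2 and Bmp7 passed it, at -1.40 and -0.62. The 4 kept their direction under the 3 other scalings, but Bmp7 did not pass the test with the hybridization controls, at -0.16, or with the array median, at -0.49. The promoter of Bmp4 is shown as that of a ligand whose signal fell with those of Bmp2, Bmp6 and Bmp7. None of the motifs searched is in it, so it has no capitals.

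Bmp4 (GRCm38.p6, chr14:46390670-46390919, minus strand, 250 bases before the start): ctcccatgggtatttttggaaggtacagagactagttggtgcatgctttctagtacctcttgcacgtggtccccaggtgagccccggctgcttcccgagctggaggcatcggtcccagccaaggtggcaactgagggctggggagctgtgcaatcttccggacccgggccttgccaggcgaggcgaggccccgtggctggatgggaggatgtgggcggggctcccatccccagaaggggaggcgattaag

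The BMP receptors moved little. Bmpr1a (ALK3) was 8.68, 9.27 and 9.40 in AC, against 9.81, 9.80 and 9.70 in DFAT cells, and the groups did not overlap. The difference was 0.66 ± 0.20 (SE; adjusted p = 0.0325, limma), and 1 of its other 5 probe sets, at or below background in DFAT cells, was lower, by a log2 difference of -1.10, while none of the other 5 was called higher. Bmpr1a did not pass the test with the mean of its probe sets, at 0.19, or with reference genes, at 0.29. Bmpr1b (ALK6) was 4.07, 3.20 and 4.12 in AC, against 5.49, 5.09 and 5.05 in DFAT cells. These values differed by 1.42 ± 0.26 (SE) with an adjusted p of 0.00333 from limma, but all 6 were at or below the background level, and the difference was 0.03 with the floor. The type II receptor gene Bmpr2 was 10.23 ± 0.15 (SD, n = 3) in AC, against 10.02 ± 0.04 in DFAT cells and did not pass the test. It was called lower with reference genes, at -0.57.

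Of the 8 Smad genes, 2 (25.0%, against 22.6% of all genes) were called higher. The calls of Smad1, Smad3, Smad4 and Smad5 depended on the scaling. Smad6, an inhibitory Smad that BMPs induce, was 8.17, 8.50 and 8.67 in AC, against 9.58, 9.89 and 9.89 in DFAT cells. The DFAT arrays were all higher, by 1.34 ± 0.17 (SE), 2.53-fold, with an adjusted p of 0.000488 from limma. Smad4, the common partner, was 9.54, 9.89 and 10.17 in AC, against 10.51, 10.45 and 10.48 in DFAT cells, a difference of 0.61 ± 0.18 (SE; adjusted p = 0.0259, limma). Smad4 did not pass the test with reference genes, at 0.25, or with the mean of its probe sets, at 0.28. The signal-carrying Smad1, Smad2, Smad3 and Smad5 differed by 0.35, 0.26, 0.35 and 0.29 and the inhibitory Smad7 by 0.34, and none passed the test. With the arrays centred on reference genes, these 5 lay between -0.10 and -0.01. With the hybridization controls Smad1, Smad3 and Smad5 were called higher, at 0.82, 0.82 and 0.75, and with the array median Smad1 and Smad3, at 0.48 and 0.48. Without AC replicate 1, Smad1, Smad3 and Smad5 were called higher as well, at 0.47, 0.34 and 0.41. Smad7 and Smad2 were lowest on that array and were -0.04 and -0.06 without it. Smad1, Smad2, Smad3, Smad5 and Smad7 each had another probe set called higher, by 0.48, 0.51, 0.56, 0.69 and 0.88. That of Smad3 was at the background level. With the mean of their probe sets, Smad1, Smad3 and Smad5 passed the test, at 0.41, 0.47 and 0.52. Smad2 and Smad7 did not, at 0.39 and 0.61. Smad9 was at the background level on all arrays.

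Of the antagonists, Grem1, Fst and Fstl3 rose and Chrd fell. Grem1 (gremlin), which binds BMP2 and BMP4, was 4.65, 4.28 and 4.74 in AC, against 6.70, 6.79 and 6.98 in DFAT cells. It was at the background level on every AC array and above it on every DFAT array. The difference was 2.27 ± 0.17 (SE; adjusted p = 2e-05, limma), and 1.24 with the floor. Fstl3, a relative of follistatin that binds activin, was 6.59, 7.46 and 7.56 in AC, against 9.58, 9.55 and 9.59 in DFAT cells. AC replicate 1 was the lowest array, and the difference of 2.37 ± 0.25 (SE), 5.18-fold, had an adjusted p of 0.000159 from limma and was 2.06 without that array. Fst, which encodes follistatin itself, rose by 0.75 (adjusted p = 0.013, limma), but was 0.38 and not past the test with reference genes. Chrd (chordin), which sequesters BMPs, was 6.47, 6.36 and 6.78 in AC, against 5.42, 5.68 and 5.34 in DFAT cells. The difference was -1.05 (adjusted p = 0.00142, limma) but did not pass the test with the hybridization controls, at -0.59. Nog was at the background level in both groups, and Bambi, a decoy receptor, did not pass the test with all arrays, at 0.16, but did without AC replicate 1, at 0.38.

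The Id genes, which encode inhibitors of helix-loop-helix factors, did not move together. Id4 was 7.36, 6.05 and 6.26 in AC, against 8.10, 8.11 and 8.16 in DFAT cells. Id1 was 10.87, 9.36 and 9.70 in AC, against 11.08, 11.15 and 11.15 in DFAT cells. Id3 was 11.41, 12.66 and 12.69 in AC, against 11.16, 11.32 and 11.18 in DFAT cells. Each of the 3 kept its groups apart, but in all of them AC replicate 1 lay closest to the DFAT arrays. By limma, Id4 was higher by 1.56 (adjusted p = 0.00506) and Id1 by 1.15 (adjusted p = 0.0331), and Id3 was lower, at -1.03 (adjusted p = 0.0376). Without AC replicate 1 the differences were 1.97, 1.60 and -1.46, with adjusted p of 6.35e-06, 4.12e-05 and 2.88e-05 from limma. When any 1 of the other 5 arrays was left out in its place, neither Id1, at 0.84 to 1.17, nor Id3, at -1.08 to -0.81, passed the test. Id1 also did not pass it with reference genes, at 0.78, nor Id3 with the hybridization controls, at -0.57, or the array median, at -0.90. With the floor at the background level, Id1 and Id3 had adjusted p of 0.0691 and 0.0755 from limma, though their differences were unchanged. Id2 was 9.47 on AC replicate 1, 8.52 and 8.61 on the other AC arrays, and 8.84 to 8.98 on the DFAT arrays, which lay between them. It did not pass the test with all arrays, at 0.03, but did without AC replicate 1, at 0.33, and a second probe set of Id2 was higher by 1.25 (adjusted p = 0.000196, limma). The promoters of Id3 and Id4, which moved in opposite directions, are printed with matches to CAGAC, on either strand, and to GGCGCC, letters within sites that BMP-activated Smads bind, in capitals.

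Id3 (GRCm38.p6, chr4:136143572-136143821, plus strand, 250 bases before the start): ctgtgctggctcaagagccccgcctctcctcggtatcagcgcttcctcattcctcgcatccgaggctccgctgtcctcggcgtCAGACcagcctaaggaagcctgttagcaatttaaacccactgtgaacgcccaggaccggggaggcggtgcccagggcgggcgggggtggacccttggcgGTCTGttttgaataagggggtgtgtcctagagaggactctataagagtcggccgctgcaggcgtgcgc

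Id4 (GRCm38.p6, chr13:48260866-48261115, plus strand, 250 bases before the start): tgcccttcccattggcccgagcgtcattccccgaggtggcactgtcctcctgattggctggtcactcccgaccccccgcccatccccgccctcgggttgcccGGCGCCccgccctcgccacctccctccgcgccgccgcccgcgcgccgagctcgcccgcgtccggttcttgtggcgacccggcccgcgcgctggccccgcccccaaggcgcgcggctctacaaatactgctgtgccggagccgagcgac

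CAGAC matches lie at -167 to -163 and, on the other strand, at -68 to -64 in the Id3 sequence, and a GGCGCC at -148 to -143 in that of Id4, a motif that 9.59% of all promoters hold.

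Fstl1, Bmp1 and Tgfbi encode secreted proteins. Fstl1, a follistatin-like glycoprotein, was 8.85, 9.94 and 9.93 in AC, against 13.03, 13.04 and 12.99 in DFAT cells. The DFAT arrays lay close together and far above all AC arrays. The difference was 3.44 ± 0.28 (SE), 10.9-fold, with an adjusted p of 3.94e-05 from limma, and 3.08 without AC replicate 1. Bmp1 is no BMP ligand but a metalloprotease that cleaves procollagen, chordin and latent TGF-beta complexes. It was 7.38, 7.12 and 7.54 in AC, against 9.78, 9.82 and 9.82 in DFAT cells, 2.46 ± 0.15 (SE) or 5.51-fold higher, with an adjusted p of 6.65e-06 from limma. A second probe set of Bmp1 was higher by 3.88, and the remaining one, at the background level in both groups, did not pass the test. Tgfbi, a matrix protein named for its induction by TGF-beta, was 6.72, 8.38 and 8.55 in AC, against 9.13, 9.13 and 9.18 in DFAT cells. The groups did not overlap, but with AC replicate 1 far below the others the difference of 1.26 had an adjusted p of 0.0513 from limma. Without that array it was 0.68, with an adjusted p of 0.00182. Of its other 3 probe sets, 2 were called higher on all arrays, by 1.25 and 1.91, and the mean of its probe sets passed the test at 1.19. The means of the leukocyte markers and of the stromal fibroblast and progenitor markers were also lowest on that array among the AC arrays. The part of either cell type in the value of Tgfbi was not tested.

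Of 104 further genes of the pathway, 96 were measured, and 31 were higher and 19 lower in DFAT cells, with 46 not past the test and a median difference of 0.02. Their share of calls was 52.1%, against 46.4% of all genes. Among 18 measured genes known to respond to TGF-beta, 11 were higher, 2 lower and 5 not past the test, with a median of 1.68, where 22.6% of all genes were higher and 23.8% lower. Hmga2, a chromatin protein, was 5.20, 4.24 and 5.18 in AC, against 11.69, 11.58 and 11.64 in DFAT cells. It was at the background level on all AC arrays, and the fitted difference was 6.76 ± 0.26 (SE; adjusted p = 6.03e-07, limma). Ccn2 (CTGF), a matrix-associated growth factor, was 9.30, 9.06 and 8.61 in AC, against 13.42, 13.40 and 13.48 in DFAT cells, a difference of 4.44 (adjusted p = 1.02e-06, limma). The others higher were Fn1, Col1a1, Snai2, Tagln, Snai1, Adam12, Acta2, Nox4 and Cdkn1a, from 3.78 down to 0.88. Acta2 and Tagln are also among 10 markers of pericytes and smooth muscle, of which 3 were higher and 7 lower in DFAT cells. Junb, an AP-1 subunit that many stimuli induce, fell, with 11.54, 12.04 and 11.88 in AC, against 8.22, 8.56 and 8.30 in DFAT cells, a difference of -3.46 (adjusted p = 2.64e-06, limma). Pdgfb, which endothelial cells are known to make, was also lower, at -3.40, or at -2.09 with the floor, since its DFAT values were at the background level. The 5 not past the test were Klf10, Skil, Pmepa1, Cdkn2b and Il11, at -0.46, -0.25, 0.09, 0.93 and -0.31, with Il11 at the background level on all arrays. Smad7, a TGF-beta response gene among the 48, did not pass it either, at 0.34. Without AC replicate 1, Klf10 and Skil were called lower, at -0.74 and -0.36. Among the 6 measured BMP response genes outside the 48, Msx1, Msx2 and Atoh8 were higher by 0.79, 1.31 and 1.51, Hey1 was lower, at -2.54, with DFAT values at the background level, and Dlx5 and Hamp were at the background level in both groups.

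**Figure D3:**
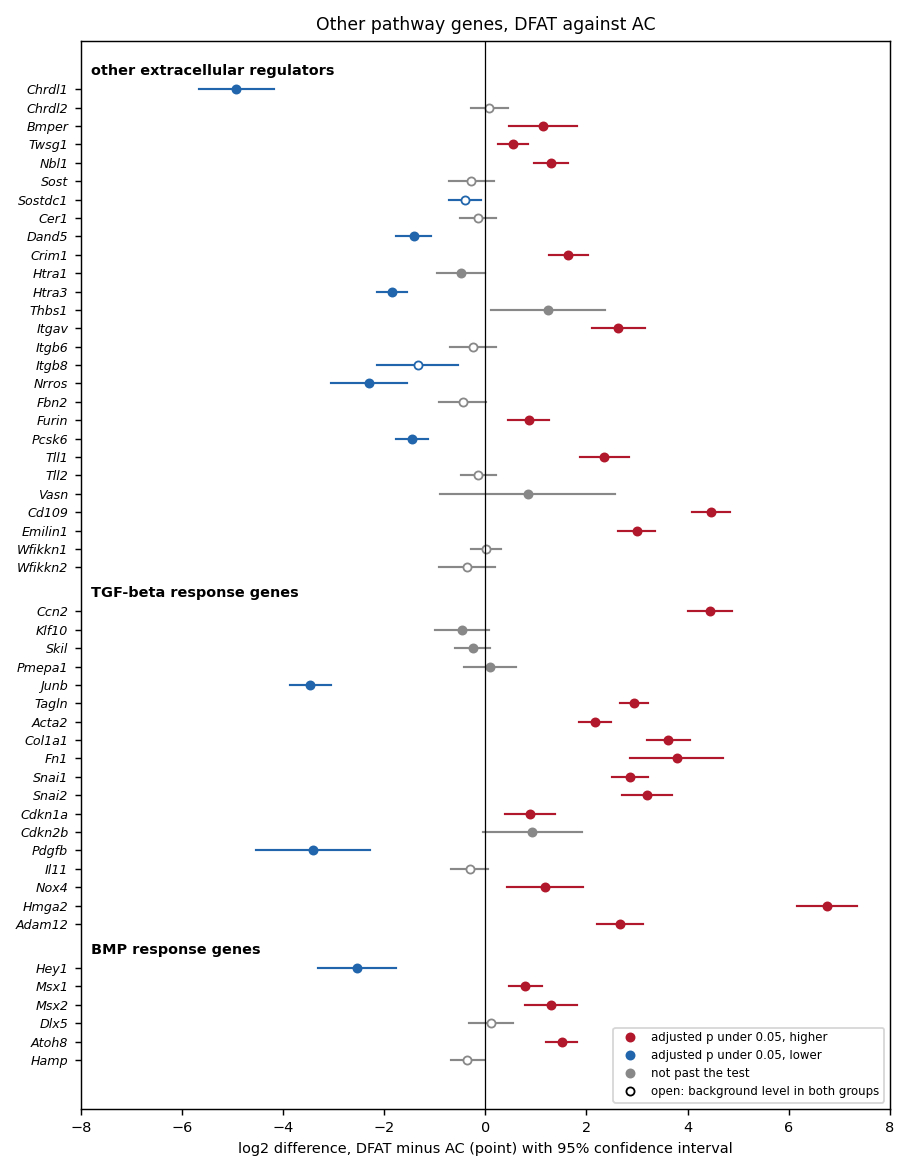
Differences of further genes of the pathway, in 3 lists. The horizontal axis is the log2 difference of DFAT cells minus AC with its 95% confidence interval, from limma over 3 arrays a group, with colours as in the plot of the 48 genes. Of the TGF-beta response genes 11 lie to the right past the test, led by Hmga2 at 6.76, and Junb and Pdgfb to the left.

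Among 27 measured extracellular regulators, 9 were higher, 7 lower and 11 not past the test. The shares higher and lower were 33.3% and 25.9%, against 22.6% and 23.8% of all genes. Cd109, a membrane protein that binds TGF-beta, was 4.52, 4.99 and 4.55 in AC, against 9.18, 9.16 and 9.11 in DFAT cells. It was at the background level in all AC arrays, and the fitted difference was 4.46 ± 0.16 (SE; adjusted p = 4.66e-07, limma). Emilin1 and Itgav, the alpha-v integrin subunit that takes part in releasing latent TGF-beta, were higher by 2.99 and 2.63. Chrdl1, a chordin-like BMP antagonist, was 7.93, 9.31 and 8.94 in AC, against 3.72, 3.75 and 3.92 in DFAT cells. All DFAT arrays were at the background level, and the fitted difference was -4.93 ± 0.32 (SE; adjusted p = 1.07e-05, limma). Among 22 further ligands and receptors, Rgmb was higher by 0.97, 6 were lower and 15 did not pass the test. Here the shares higher and lower were 4.55% and 27.3%, against 22.6% and 23.8% of all genes. Acvr1c (ALK7), a type I receptor of activin B and related ligands that is known from adipocytes, was 8.31, 9.30 and 8.52 in AC, against 2.64, 2.71 and 2.64 in DFAT cells. All DFAT arrays were at the background level, and the fitted difference was -6.05 ± 0.25 (SE; adjusted p = 8.53e-07, limma), or -3.09 with the floor. Eng (endoglin), one of the endothelial markers, was lower, at -1.65.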

How the data were processed

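Expression of 6 Affymetrix GeneChip Mouse Genome arrays, 3 of AC and 3 of DFAT cells, was grouped by the titles of the samples. The authors deposited log2 values from RMA, run in R with affy per the methods. RMA subtracts background, quantile-normalizes the arrays and reduces each probe set to 1 value, so differences in total RNA between groups are not kept. Its version, and which arrays were normalized together, are not given in the sources used here. Of 45037 probe sets, 34945 have 1 gene symbol in the platform annotation, and 64 control probe sets were left out.

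DFAT cells were compared with AC by limma 3.58.1 in R 4.3.3 (lmFit and eBayes, two-sided, p-values adjusted by Benjamini-Hochberg over the 45037 probe sets, threshold 0.05, no filter), after the step was tested on simulated data. Differences are DFAT minus AC, and at least 4-fold is a log2 difference of at least 2. With 3 arrays a group, no exact permutation p can be below 0.1, and none was used. The background level was percentile 95 of an array's values over 129 probe sets, which stand for 96 genes of sense organs, retina, lens and sperm. Values on every array are given for genes past the test with at least 4-fold changes and no overlap, or else the largest called change of a role, and for the 3 largest rises and 3 largest falls of the pathway lists. Other genes are examples or exceptions. The genes, lists and tests were chosen with earlier results of these data known. Of the 19 called genes with several probe sets, 7 had the same call throughout, 10 had some that missed the threshold, and 2 (Tgfb1 and Bmpr1a) had one called the other way. Promoters are from RefSeq for GRCm38.p6. Python 3.11.15, pandas 2.3.3, numpy 2.4.6 and matplotlib 3.10.9 were used for tables and figures. The alternatives were other normalization, centring, floors, filters, variance models, array weights, probe set rules, a fold rule, the replicate number as a block, and leaving out each array.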

Additional observations from a re-analysis of the deposited data

How the results depend on the processing

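Of the 30 genes called, 12 kept their call and direction under each of the 18 other fits that gave them a value (Acvr1, Bmp1, Fstl1, Fstl3, Grem1, Id4, Inhba, Inhbb, Ltbp1, Smad6, Tgfb2 and Tgfbr3). With reference genes as the centre, 11 of the 48 genes were higher, 44 of the other pathway genes lower, and 26821 probe sets called. The 13 lower genes of the 48 all kept their call there, and 6 more were called lower (Tgfb3, Ltbp3, Ltbp4, Acvr2b, Bmp5 and Bmpr2). More of the 48 were thus lower than higher under that scaling. With the hybridization controls, 8 of the 48 and 11 of the other pathway genes were lower. With the floor at the background level 5 of the 48 were lower, and 8 with the 90th percentile, which was added after seeing the data. With a rule of at least 4-fold, 7 of the 48 were higher and 4 lower, against 13 and 7 of the other pathway genes and 3742 probe sets. Leaving out each array in turn gave 12 to 23 higher and 11 to 14 lower of the 48, 28 to 33 and 14 to 24 of the other pathway genes, and 13160 to 20998 probe sets called. The highest counts of the 48 came without AC replicate 1. Smad4 lost its call without AC replicate 2 or any 1 DFAT array (0.60 to 0.63), Bmp7 (-0.63 to -0.60) and Bmpr1a (0.64 to 0.69) without any 1 DFAT array, Fst (0.67) without DFAT replicate 1, and Tgfbr1 (0.32 to 0.48) without any 1 array. The floors tie dim values and the fold rule is stricter by construction. Id1 and Id3, with no value below the floors and unchanged differences of 1.15 and -1.03, also lost their calls with both floors. For these 2 genes, the centrings and the left-out arrays, the cause was not tested.

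Directions turned in these cases. Of the genes called, Tgfb1 was -0.070 with the mean of its probe sets and Bmpr1b -0.02 with the 90th percentile floor. Of the others, the reference genes turned Acvr2a (-0.13), Smad1 (-0.014), Smad2 (-0.10), Smad3 (-0.013), Smad5 (-0.078), Smad7 (-0.030), Smad9 (-0.041), Bambi (-0.20) and Id2 (-0.34). The hybridization controls turned Ltbp3 (0.44), Bmp5 (0.21), Bmpr2 (0.26) and Nog (0.33), the array median Ltbp3 (0.11), and quantile normalization Nog (0.022), Bambi (-0.021) and Id2 (-0.14). The background floor turned Bmp5 (0.030) and Nog (0.030), and the 90th percentile floor Inha (-0.092) and Smad9 (-0.17). The mean of its probe sets gave Ltbp3 1.24. With each array left out, the differences ran from -0.095 to 0.046 for Ltbp3, -0.058 to 0.44 for Smad2, -0.041 to 0.55 for Smad7, -0.30 to 0.084 for Nog and -0.14 to 0.33 for Id2.

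Arrays of the 2 groups with the same replicate number did not deviate together, with correlations of -0.02, -0.03 and 0.01. With so few arrays a group, this cannot tell whether the numbers pair them. With the replicate number as a block, 17 of the 48 genes were higher and 13 lower, 31 and 16 of the other pathway genes, and 16023 probe sets were called. Tgfbr1 lost its call under that block (adjusted p = 0.104, limma) and Tgfbi gained one (adjusted p = 0.0301, limma). Signal over background is the limit for genes at the background level in a group, since their fitted differences have no order there.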

Other observations

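Intracellular regulators of the pathway were measured for 25 genes, of which 7 were higher, 3 lower and 15 not past the test in DFAT cells, by limma. The shares higher and lower were 28.0% and 12.0%, against 22.6% and 23.8% of all genes. Strap, a kinase receptor-associated protein that dampens TGF-beta signalling, and Zfyve16, an endosomal Smad anchor, were higher by 1.33 and 1.10. Stub1, Smurf2 (a ubiquitin ligase for Smads and receptors), Tgif1, Fkbp1a and Map3k7 (TAK1) were higher by 0.87, 0.76, 0.61, 0.59 and 0.49. Tgif2, a corepressor, Ppm1a, a Smad phosphatase, and Nedd4l, a ubiquitin ligase, were lower, at -1.10, -0.99 and -0.50. The 3 falls did not pass the test with the hybridization controls, nor did the rises of Tgif1, Fkbp1a and Map3k7 with reference genes. Of the further ligands and receptors, Amhr2, the receptor for anti-Müllerian hormone, was lower at -2.91, or at -1.92 with the floor, since its DFAT values were at the background level. Lefty1 was called lower at -0.74, but not with the floor, at -0.36. Gdf5 and Hjv were called lower at -0.93 and -0.79, but were at the background level on all 6 arrays.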
